A study of Homo sapiens with 105 samples.

Results

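The comparison described here is that of HGrC1 cells carrying wild-type FOXL2 (WT) with HGrC1 cells carrying an empty vector (EV), neither given TGF-beta. HGrC1 is a human granulosa cell line. EV cells were transduced with the vector alone and WT cells with FOXL2. Another group, transduced with the FOXL2 C134W mutant (C134W), served as the bridge between them. Each group had 3 RNA libraries, all grown in Ham medium with 10% fetal calf serum and placed by the labels in the same experiment. The promoter that drove FOXL2, the time since transduction, and whether cells were pooled or cloned are not stated in the labels. The series holds 105 samples, 27 of them RNA. No table of WT against EV was among the files used here, so the log2 fold of each gene was derived as C134W against EV minus C134W against WT, after a shrinkage of the deposited folds had been undone. Genes entered when their mean normalized read count was at least 100 in both tables, which left 9356 of 26330 gene symbols.

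FOXL2 is a forkhead transcription factor that sets and keeps the identity of granulosa cells, the somatic cells that surround the oocyte, and it holds back the Sertoli programme of the testis. Forkhead proteins bind short sites around the motif GTAAACA. A single change of one residue, C134W, is the hallmark of adult granulosa cell tumours. Because the vector cells carried almost no FOXL2 transcript, the comparison asks which transcripts differ when the normal protein is supplied.

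In what follows a level is the mean normalized read count of a group, implied by the deposited tables, and "±" is its standard error for 3 libraries. That error comes from a dispersion, the spread among libraries, solved per gene and shared by both groups of a comparison. It is therefore not the spread of a group's own libraries. A fold is WT minus EV on the log2 scale, and its "±" is a standard error that also counts the spread of the C134W libraries, although these cancel. In that respect it is too large, provided that the solved dispersions hold. It is not an upper bound in general, because the undoing has 2 solutions and the smaller error was taken. For IGFBP7-AS1 the other solution gave an error of 1.35 against 0.58. "Higher" and "lower" mean a Benjamini-Hochberg adjusted p under 0.05 over all 9356 genes in a two-sided z test on the derived folds. Values per library could not be had from tables of comparisons, so whether single libraries of EV and WT overlap cannot be said. The labels do not tie the libraries of a group to separate cultures, so the p-values cover the spread among these libraries, and that spread may be technical. Estimated assigned reads were 6390000 to 11250000 per EV library and 8060000 to 11480000 per WT library. The 2 tables gave the same C134W level to within a median of 0.00205 on the log2 scale, and to within 0.0552 at worst.

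The transduced gene separated the groups. FOXL2 stood at 7.16 ± 1.59 in EV, 1470.2 ± 43.6 in WT and 1338 ± 59.4 in C134W normalized reads, a fold of 7.68 ± 0.33 (adjusted p = 4.2e-115). The EV level rested on 21 reads over 3 libraries. WT and C134W cells therefore carried similar amounts of FOXL2 transcript, and EV cells close to none.

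Many genes differed between WT and EV cells, most of them by little. Of 9356 genes, 1305 (13.9%) were higher in WT and 1079 (11.5%) lower, 2384 in all (25.5%). These shares are the background for all counts of list members below. The lists overlap, so a gene can be counted in more than 1. By at least 1 on the log2 scale, 173 (1.85%) were higher and 120 (1.28%) lower. The median fold was 0.00829, the median size of a fold 0.187 and the median standard error 0.135. With the C134W libraries taken out of the error, 2139 genes were higher and 1856 lower, so in that respect the counts above are on the cautious side. Just inside the limit on the mean lay SFXN5 and ZNF839, at means of 100.1 in the table against WT. Just outside lay KLHL25 and HMOX1, at means of 99.99 and 99.93 in the table against EV. No gene had a level in C134W that differed by over 5% between the 2 tables.

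**Figure D1:**
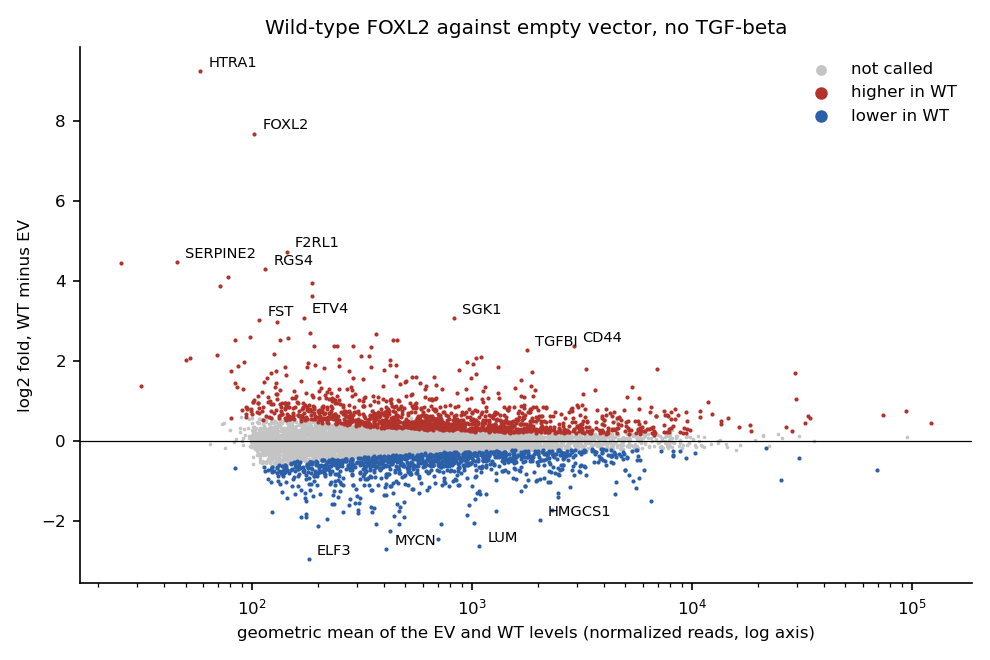
Log2 fold of WT minus EV (vertical axis) against the geometric mean of the EV and WT levels in normalized reads (horizontal log axis) for the 9356 genes, each point a gene. Red points are the 1305 higher genes and blue points the 1079 lower genes. HTRA1 at 9.23 and FOXL2 at 7.68 stand above the rest, and the lowest gene, ELF3, is at -2.94.

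The promoters of the genes with the largest changes are shown first. Each sequence below is the 250 bases before the annotated start of the gene in RefSeq (GRCh38.p14), written 5′ to 3′ along the gene. They are those of the 2 highest genes apart from FOXL2, HTRA1 and F2RL1, and of the 2 lowest, ELF3 and MYCN. None of the 4 holds GTAAACA on either strand.

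HTRA1 (chr10:122461303-122461552, plus strand): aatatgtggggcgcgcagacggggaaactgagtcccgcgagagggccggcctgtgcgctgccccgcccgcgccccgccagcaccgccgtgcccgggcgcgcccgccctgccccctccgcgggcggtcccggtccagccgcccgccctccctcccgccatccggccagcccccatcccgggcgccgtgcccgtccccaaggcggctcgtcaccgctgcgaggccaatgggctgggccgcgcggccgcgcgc
F2RL1 (chr5:76818780-76819029, plus strand): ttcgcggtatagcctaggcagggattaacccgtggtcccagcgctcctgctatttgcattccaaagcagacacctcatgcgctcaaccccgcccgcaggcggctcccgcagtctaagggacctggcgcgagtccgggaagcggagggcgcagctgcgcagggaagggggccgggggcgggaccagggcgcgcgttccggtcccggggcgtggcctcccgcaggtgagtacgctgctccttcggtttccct
ELF3 (chr1:202010337-202010586, plus strand): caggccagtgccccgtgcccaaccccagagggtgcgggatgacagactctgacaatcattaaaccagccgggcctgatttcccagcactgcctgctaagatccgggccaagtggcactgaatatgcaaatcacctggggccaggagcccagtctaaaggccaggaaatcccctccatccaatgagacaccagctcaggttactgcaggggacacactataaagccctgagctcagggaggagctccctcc
MYCN (chr2:15940300-15940549, plus strand): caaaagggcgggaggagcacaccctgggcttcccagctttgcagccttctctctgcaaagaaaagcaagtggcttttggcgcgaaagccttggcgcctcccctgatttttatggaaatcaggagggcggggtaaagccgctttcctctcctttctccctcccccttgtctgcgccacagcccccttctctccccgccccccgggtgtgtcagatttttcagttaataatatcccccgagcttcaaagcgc

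HTRA1, a secreted serine protease that cleaves matrix proteins and TGF-beta family ligands, stood at 2.38 ± 0.904 in EV, 1436 ± 35.7 in WT and 3755 ± 133 in C134W normalized reads. Its fold was 9.23 ± 0.55 (adjusted p = 2.3e-60), with only 7 reads over the 3 EV libraries. HTRA1 was thus near silent in vector cells and abundant in both kinds of FOXL2 cell, higher still in C134W. F2RL1, the protease-activated receptor PAR2, stood at 28 ± 3.43 in EV, 745 ± 26.4 in WT and 475 ± 27.7 in C134W, a fold of 4.74 ± 0.21. SERPINE2, protease nexin-1, an inhibitor of thrombin and urokinase, stood at 9.87 ± 1.89 in EV, 212 ± 30.7 in WT and 768 ± 37.6 in C134W, a fold of 4.47 ± 0.41. A protease, a protease receptor and a protease inhibitor so held the first 3 places after FOXL2 is set aside.

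The other members of the 15 highest genes fell into several kinds. HUNK, a protein kinase of the AMPK-related family, was higher by 4.45 ± 0.41, and RGS4, a brake on G protein signalling, by 4.30 ± 0.23. SYNPO2, an actin-bundling protein of muscle, stood at 19 ± 2.7 in EV, 324 ± 14.6 in WT and 671 ± 34.8 in C134W, a fold of 4.09 ± 0.23. It belongs with HTRA1, SERPINE2 and HUNK among the genes whose C134W level lay above that of WT. DIO2, the deiodinase that activates thyroid hormone, was higher by 3.88 ± 0.27, MGARP by 3.62 ± 0.18 and NAV3 by 2.99 ± 0.20. SGK1, a kinase induced by serum and glucocorticoid, went from 286 ± 15.2 to 2406 ± 55.3 normalized reads, a fold of 3.07 ± 0.11. FST, the activin-binding protein follistatin and a long-known FOXL2 target, stood at 37.9 ± 4.27 in EV, 308 ± 15.7 in WT and 259 ± 18 in C134W, a fold of 3.02 ± 0.22. The ETS factors ETV4 and ETV5, which are switched on by ERK signalling, were higher by 3.09 ± 0.17 and 2.70 ± 0.18. IGFBP7-AS1 was higher by 3.96 ± 0.58, but it overlaps IGFBP7 (fold 1.28 ± 0.07), and the kit does not mark strand, so reads of this pair cannot be told apart.

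The 15 lowest genes ran from -2.94 to -1.88. ELF3, an epithelial ETS factor, fell from 502 ± 28.2 to 65.6 ± 6.55 normalized reads, a fold of -2.94 ± 0.23 (adjusted p = 3.0e-36), with 138 ± 9.47 in C134W. MYCN, the neuronal relative of MYC, stood at 1036 ± 52.6 in EV, 160.4 ± 11.3 in WT and 209 ± 12.8 in C134W, a fold of -2.70 ± 0.18. MYC itself was 0.07 ± 0.11 and not called. LUM, the matrix proteoglycan lumican, stood at 2684 ± 99.7 in EV, 435 ± 18.4 in WT and 594 ± 25.1 in C134W, a fold of -2.63 ± 0.12. Next came NEBL, an actin-binding protein (-2.43 ± 0.15), SLC7A7, a subunit of a cationic amino acid transporter (-2.23 ± 0.18), NCKAP5 (-2.11 ± 0.21) and CRB2, a Crumbs polarity protein (-2.07 ± 0.17). AKR1B10, a reductase of aldehydes and retinal, was lower, at -2.06 ± 0.17 and FABP3, a fatty acid carrier, at -2.06 ± 0.14. HMGCS1, the enzyme that makes HMG-CoA for cholesterol, stood at 4012 ± 172 in EV, 1031 ± 30.7 in WT and 1274 ± 56.9 in C134W, a fold of -1.96 ± 0.11. H19, an imprinted noncoding RNA, stood at 945 ± 48.7 in EV, 255 ± 15.6 in WT and 266 ± 15.7 in C134W, a fold of -1.89 ± 0.17. LOC646762, FLRT3, PCLO and PAPLN completed the group at -2.04 ± 0.11, -1.94 ± 0.19, -1.89 ± 0.23 and -1.88 ± 0.21. No gene of the 15 was near silent in WT cells, where the lowest level was that of ELF3.

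**Figure D2:**
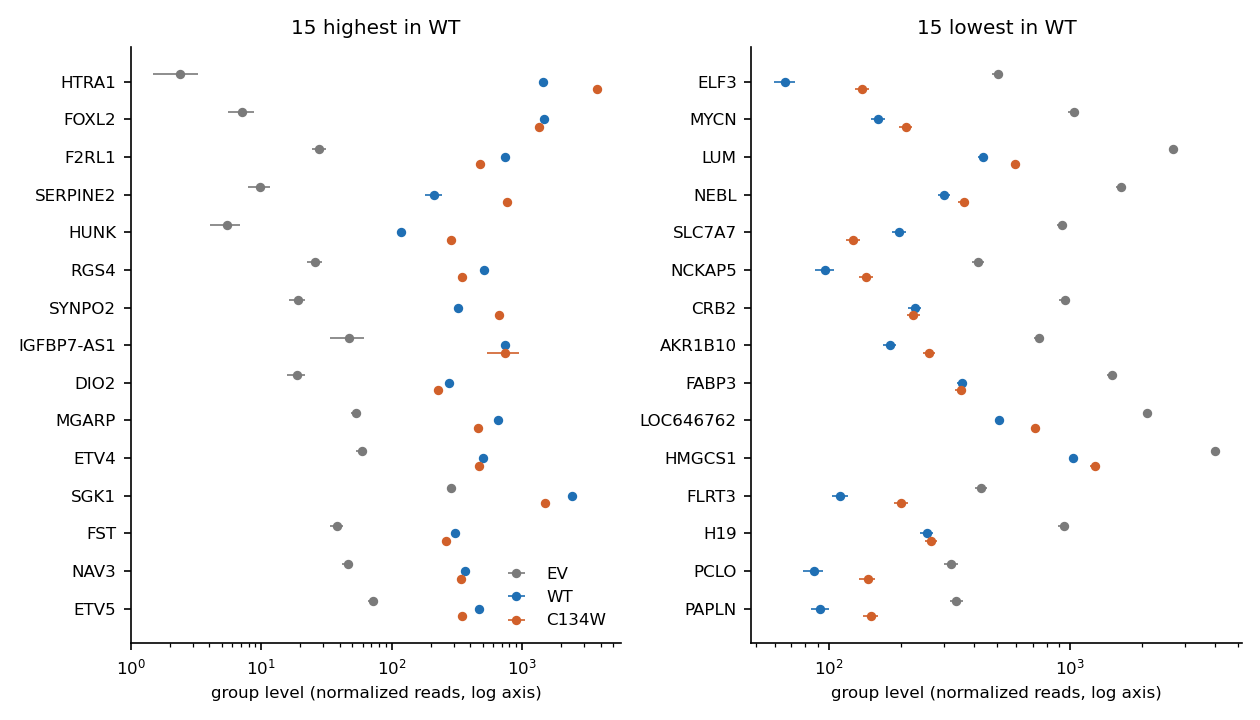
Group levels in normalized reads (log axis) of the 15 genes highest and the 15 genes lowest in WT against EV, with EV in grey, WT in blue and C134W in orange. Points are means over 3 libraries and bars are the standard errors of levels defined in the text. EV lies to the left of WT for all 15 genes on the left and to its right for all 15 on the right, as the choice of genes fixes. C134W lies beyond WT for HTRA1, SERPINE2, HUNK, SYNPO2 and SLC7A7, and by under 5% for IGFBP7-AS1, CRB2 and FABP3.

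Forkhead motifs close to the start were rare in every set. GTAAACA on either strand stood in the 250 bases before the start in 5 of 133 promoters of genes higher by at least 1 and in 2 of 99 of genes lower by at least 1. The share over all 7738 promoters of tested genes found in the table was 1.82%. The 5 higher genes were BDNF (1.78), IGFBP6 (1.15), JUNB (1.01), PERP (1.01) and MBP (1.01). The 2 lower genes were ELOVL6 (-1.29) and PLCE1 (-1.65). Shown are 2 examples of the higher set, which encode a neurotrophin and an IGF-binding protein, with the motif in capitals. A match is a description of the letters and not a bound site, and the windows leave out distant enhancers.

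BDNF (chr11:27722031-27722280, minus strand): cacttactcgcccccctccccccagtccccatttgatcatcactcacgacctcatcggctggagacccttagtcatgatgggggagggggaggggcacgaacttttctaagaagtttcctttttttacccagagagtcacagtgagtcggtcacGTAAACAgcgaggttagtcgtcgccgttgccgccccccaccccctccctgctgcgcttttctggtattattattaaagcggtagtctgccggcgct
IGFBP6 (chr12:53097417-53097666, plus strand): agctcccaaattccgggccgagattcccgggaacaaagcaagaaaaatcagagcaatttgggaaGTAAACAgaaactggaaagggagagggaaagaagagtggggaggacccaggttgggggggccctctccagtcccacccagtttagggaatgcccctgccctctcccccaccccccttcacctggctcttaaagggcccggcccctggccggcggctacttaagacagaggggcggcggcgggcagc

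Genes of granulosa identity did not move as a block. Of 33 genes on the list, 18 could be tested, FOXL2 itself included. Of these 8 were higher (44.4%, against 13.9% of all genes) and 2 lower (11.1%, against 11.5%), with a median of 0.13. After FOXL2 and FST the largest was GATA6, a zinc-finger factor of the gonad, at 0.64 ± 0.21, followed by the BMP receptor BMPR2 at 0.48 ± 0.09 and CITED2 at 0.43 ± 0.09. GATA4 was 0.06 ± 0.10, FOXO1 0.09 ± 0.24 and WT1 -0.07 ± 0.24, none of them called. The lower pair among tested members were KITLG, the KIT ligand that granulosa cells offer to the oocyte, from 751 to 354 normalized reads (-1.08 ± 0.15), and EMX2 (-0.58 ± 0.15). Several defining granulosa transcripts were near absent: the mean over EV and C134W libraries was 0.428 for FSHR, 0.296 for CYP19A1, the aromatase, 0.448 for NR5A1 and 1.31 for AMHR2. AMH stood at 36.1 and INHA at 18.7. INHBA and INHBB also missed the limit and were not tested, though their means differed between comparisons. Over EV and C134W libraries they stood at 82.9 and 155.6, and over WT and C134W libraries at 154.9 and 46.2. Other members of the list were well expressed, among them GATA4 at 1731, CITED2 at 1525 and BMPR2 at 1216 normalized reads in EV cells.

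Genes that earlier work names as FOXL2 targets gave mixed answers. Only 7 of 20 could be tested, with 3 higher and 2 lower. FST and IER3, an early-response survival gene (1.06 ± 0.11), were higher, and SIRT1 was higher by 0.33 ± 0.13, a call that 4 other settings lost. BMF, a pro-apoptotic BCL2 relative, was lower, at -0.95 ± 0.20 and CDKN1B, the cell cycle inhibitor p27, at -0.26 ± 0.08. SOD2 was 0.06 ± 0.17 and TNFRSF10B 0.04 ± 0.10, neither of them called. STAR, CYP17A1 and PTGS2 stood at means of 3.96, 1.48 and 0.174 and were not tested. FAS was not tested either, with a mean of 130.6 over EV and C134W libraries and 66.8 over WT and C134W libraries.

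SOX9, the Sertoli factor that FOXL2 represses in the gonad, was higher and not lower in WT. It stood at 86 ± 7.25 in EV, 195 ± 11.7 in WT and 290.5 ± 18.7 in C134W normalized reads, a fold of 1.18 ± 0.19 (adjusted p = 1.5e-08). Of the 12 Sertoli markers 3 could be tested, and CLDN11 was lower, at -0.31 ± 0.08 while GDNF was -0.20 ± 0.09. Steroid enzymes were few: of 28 genes 13 could be tested, 0 were higher and 4 lower (median -0.20). The lower genes included HSD17B4 (-0.78 ± 0.09), HSD17B7 (-0.64 ± 0.22), which also serves cholesterol synthesis, and SRD5A3 (-0.58 ± 0.23).

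Components of TGF-beta signalling shifted in WT cells although none was given. TGF-beta family ligands bind paired kinase receptors that phosphorylate SMAD proteins, and BMP ligands use the same scheme with other SMADs, while inhibitory SMADs and soluble traps dampen both. Among ligands and antagonists, 6 of 13 tested genes were higher and 2 lower. FST was joined by BMP2 (1.59 ± 0.22) and TGFB1, which went from 459 to 952 normalized reads (1.05 ± 0.25). FSTL1 and FSTL3, relatives of follistatin, were lower, at -0.96 ± 0.07 and -0.51 ± 0.13. Among receptors and SMADs, 8 of 21 were higher (38.1%, against 13.9% of all genes) and 1 lower (4.76%, against 11.5%). The higher genes included the inhibitory SMAD6 (1.09 ± 0.21) and SMAD7 (0.46 ± 0.15), SMAD3 (0.49 ± 0.08), the receptors TGFBR2 (0.54 ± 0.10) and ACVR1 (0.62 ± 0.15), and the ubiquitin ligase SMURF2 (0.72 ± 0.11). SMAD2 (0.02 ± 0.09), SMAD4 (0.02 ± 0.10) and TGFBR1 (-0.14 ± 0.13) were not called. The lower gene was BAMBI, a pseudoreceptor that blocks the pathway, from 1801 to 925 (-0.96 ± 0.09).

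Of 24 tested genes that TGF-beta usually induces, 11 were higher (45.8%, against 13.9% of all genes) and 3 lower (12.5%, against 11.5%), with a median of 0.32. TGFBI, a secreted matrix protein, stood at 814 ± 31.7 in EV, 3926 ± 81.2 in WT and 1896 ± 67 in C134W, a fold of 2.27 ± 0.09 (adjusted p = 3.5e-144). CTGF (1.10 ± 0.07), PMEPA1 (1.03 ± 0.18) and TAGLN (0.97 ± 0.08) followed. MMP2 (0.10 ± 0.10) and ACTA2 (0.16 ± 0.24) were not called. FN1, fibronectin, was lower, at -0.72 ± 0.07 and PODXL at -1.12 ± 0.09. On the BMP side 6 of 10 tested genes were higher and 1 lower (median 0.56). These calls are not all separate: SMAD6, SMAD7 and the lower gene BAMBI were already counted above, and HES1 is counted again with the Notch genes. ID1, an inhibitor of bHLH factors and a direct BMP target, stood at 164 ± 12.5 in EV, 717 ± 27.4 in WT and 452 ± 29.9 in C134W, a fold of 2.12 ± 0.17, and ID3 was higher by 1.31 ± 0.31. ID2 (0.07 ± 0.15) and ID4 (-0.07 ± 0.14) were not called.

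Most tested transcripts that report ERK activity rose in WT cells. ERK is the kinase at the end of the RAS pathway, and it induces ETS and AP-1 factors along with the feedback inhibitors of the Sprouty and DUSP families. Of 16 tested genes of ERK output 11 were higher (68.8%, against 13.9% of all genes) and 1 lower, with a median of 0.80 against 0.00829 over all genes. The median of the list was 0.58 with a mean of at least 500. ETV4 stood at 59 ± 5.37 in EV, 501 ± 20.2 in WT and 466 ± 25.9 in C134W and ETV5 at 71.8 ± 6.4 in EV, 469 ± 20.7 in WT and 345 ± 21.9 in C134W. The feedback inhibitor SPRY4 was higher by 1.97 ± 0.24 and SPRY2 by 0.63 ± 0.14, and the phosphatases DUSP1 and DUSP4 by 0.77 ± 0.09 and 0.39 ± 0.10. PHLDA1 and PHLDA2 were higher by 1.91 ± 0.12 and 1.79 ± 0.16, and the AP-1 subunit FOSL1 by 1.58 ± 0.16. CCND1, cyclin D1, was 0.10 ± 0.08 and not called, and LIF was lower, at -0.33 ± 0.11. Of the EGF family, EGFR (0.08 ± 0.11), ERBB2 (-0.06 ± 0.11) and HBEGF (0.02 ± 0.11) were not called, while the receptor FGFR1 was higher by 0.70 ± 0.12.

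AP-1 and immediate early genes moved the same way. Of 20 tested, 13 were higher (65%, against 13.9% of all genes) and 0 lower (median 0.45). Besides FOSL1 the higher genes included MAFF (1.25 ± 0.19), JUN (1.06 ± 0.12), JUNB (1.01 ± 0.21), FOS (0.80 ± 0.18) and JUND (0.47 ± 0.15). JUN stood at 659 ± 36.3 in EV and 1376 ± 36.1 in WT. EGR1 was -0.38 ± 0.24, ATF3 -0.24 ± 0.16 and CYR61 -0.08 ± 0.07 and none of them was called. Targets of YAP and TEAD, the effectors of the Hippo pathway, were higher for 12 of 24 (50%) and lower for 4 (16.7%, against 11.5% of all genes). ANKRD1 led with 1032 ± 39.8 in EV, 3409 ± 67 in WT and 1681 ± 61.4 in C134W, a fold of 1.72 ± 0.09, and NT5E followed at 1.30 ± 0.11. DLC1 was lower, at -0.91 ± 0.20.

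Growth factor genes changed in both directions. In the FGF, PDGF, VEGF and IGF axis 8 of 21 were higher and 5 lower. IGFBP4, which sequesters IGF, stood at 145 ± 9.67 in EV, 934 ± 30.6 in WT and 627 ± 31.6 in C134W, a fold of 2.69 ± 0.14, and IGFBP7, IGFBP6 and IGFBP2 were higher by 1.28 ± 0.07, 1.15 ± 0.16 and 0.90 ± 0.17. IGFBP3 was lower, at -0.45 ± 0.12. PDGFB went from 35 to 203 normalized reads (2.53 ± 0.25), while PDGFC and FGF18 were lower, at -0.48 ± 0.09 and -1.30 ± 0.16. The receptors IGF1R (0.22 ± 0.10) and PDGFRB (0.17 ± 0.12) were not called. Among Wnt genes 4 of 12 were higher and 3 lower: the secreted protein DKK3 went from 478 to 1879 (1.98 ± 0.10) and the ligand WNT2B from 565 to 165 (-1.79 ± 0.20). In the Notch group 3 of 8 were higher, HES1 by 0.66 ± 0.15, and 2 lower, the glycosyltransferase LFNG at -0.76 ± 0.18. Of 39 interleukin and cytokine genes only 4 could be tested, and IL32 was lower, at -0.64 ± 0.09. Interferon-stimulated genes were higher for 2 and lower for 2 of 13, a share close to that of all genes.

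Most genes of the plasminogen and thrombin-receptor system rose. Urokinase and tissue plasminogen activator turn plasminogen into plasmin at the cell surface, serpins restrain them, and protease-activated receptors sense the cut. Of 17 tested genes 12 were higher (70.6%) and 1 lower, with a median of 0.74, which was 0.57 with a mean of at least 500. PLAU, urokinase, stood at 512 ± 21.3 in EV, 2155 ± 43.8 in WT and 3118 ± 105 in C134W, a fold of 2.07 ± 0.09, its receptor PLAUR was higher by 0.88 ± 0.19 and PLAT by 1.06 ± 0.11. Of the receptors, F2R, which thrombin cleaves, was higher by 1.58 ± 0.11 beside F2RL1. Of the inhibitors, SERPINE2 and SERPINB2 (1.75 ± 0.21) were higher. PROCR, the protein C receptor, was the lower gene (-0.46 ± 0.15).

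Contractile and actin-binding genes shifted by modest amounts. Of 30 tested, 19 were higher (63.3%) and 1 lower, with a median of 0.50. SYNPO2 lay far above the others. Vinculin, VCL, went from 4377 to 7598 normalized reads (0.80 ± 0.07), TAGLN from 8437 to 16517 and PDLIM5 was higher by 0.81 ± 0.08. The tropomyosins TPM1, TPM2 and TPM4 were higher by 0.58 ± 0.06, 0.59 ± 0.09 and 0.76 ± 0.07. Smooth muscle actin, ACTA2 (0.16 ± 0.24), and the myosin MYH9 (0.01 ± 0.08) were not called, and MYH10 was lower, at -0.79 ± 0.08. MYH10 is also a gene with a very long mRNA, a set taken up below.

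Matrix receptors and matrix genes held members that were higher and members that were lower. Among integrins and laminins 9 of 19 were higher and 7 lower. The higher genes were all integrins, led by ITGB3 at 190.0 ± 11.2 in EV, 1099 ± 32.7 in WT and 748 ± 34.2 in C134W, a fold of 2.53 ± 0.12, then ITGA1 (1.38 ± 0.11) and ITGB5 (1.25 ± 0.10). The lower genes included the laminin chains LAMA3 (-1.001 ± 0.19), LAMB2 (-0.71 ± 0.12), LAMA5 (-0.60 ± 0.21) and LAMC3 (-0.57 ± 0.18), with ITGAV (-0.47 ± 0.10) and ITGB4. ITGB4, the hemidesmosomal partner of the laminin receptor, stood at 2336 ± 104 in EV, 705 ± 23.5 in WT and 1031 ± 47.5 in C134W, a fold of -1.73 ± 0.11. Among collagens 4 of 14 were higher and 5 lower: COL8A1 went from 154 to 787 (2.36 ± 0.15), while the basement membrane chains COL4A5 and COL4A6 were lower, at -1.04 ± 0.11 and -1.39 ± 0.17. COL1A1 was higher by 0.42 ± 0.10 and COL3A1 lower, at -0.42 ± 0.06.

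Other matrix genes were higher for 9 and lower for 12 of 31. The hyaluronan receptor CD44 stood at 1283 ± 45 in EV, 6628 ± 108 in WT and 4698 ± 150.0 in C134W, a fold of 2.37 ± 0.08, and the syndecan SDC1 at 149.8 ± 10.3 in EV, 654 ± 24.8 in WT and 439.5 ± 24.4 in C134W, a fold of 2.12 ± 0.15. LOX, the enzyme that crosslinks collagen, was higher by 1.85 ± 0.10, thrombospondin THBS1 by 1.72 ± 0.06 and fibrillin FBN1 by 1.37 ± 0.08. On the lower side stood LUM, THBS2 (-1.82 ± 0.22), MATN2 (-1.31 ± 0.07), TNC (-1.17 ± 0.07) and FN1. Matrix proteases and their inhibitors were split 6 higher to 4 lower of 14. After HTRA1 the higher genes were the proteases ADAMTS15, ADAMTS7 and ADAMTS5 and the inhibitors TIMP1 and TIMP2. The lower genes were MMP24 (-1.68 ± 0.17), MMP15 (-1.44 ± 0.12), ADAMTS3 (-1.12 ± 0.13) and MMP14 (-0.41 ± 0.11).

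Epithelial genes did not share a direction. Keratins and junction genes were higher for 8 and lower for 4 of 17. KRT7 stood at 127 ± 10.1 in EV, 656 ± 26.3 in WT and 220.1 ± 15.6 in C134W, a fold of 2.37 ± 0.18, KRT17 was higher by 1.36 ± 0.09 and desmoplakin DSP by 1.46 ± 0.22, while KRT19 was lower, at -0.54 ± 0.10. Of the factors and genes linked to the epithelial-mesenchymal transition, HMGA2 (1.53 ± 0.09), SOX4 (1.61 ± 0.11), VIM (1.06 ± 0.06) and CDH2 (0.54 ± 0.07) were higher. ZEB1 (0.07 ± 0.17) and ZEB2 (0.06 ± 0.11) were not called, and ELF3 was the lower gene. VIM, vimentin, went from 20552 to 42802 normalized reads. The stemness list held HMGA2, SOX4, NT5E and HMGA1 (1.09 ± 0.09) among 8 higher genes of 13, and LIN28A (-1.09 ± 0.15), PEG10 (-0.60 ± 0.09) and H19 as the lower genes. Semaphorins, plexins and ephrins leaned downward, 10 lower and 4 higher of 28. SEMA3E went from 3867 to 1582 (-1.29 ± 0.10) and PLXNA2 was lower, at -1.38 ± 0.16, while the receptor EPHB2 was higher by 1.85 ± 0.14. Of the adhesion molecules, PCDH7 and CDH13 were higher by 1.86 ± 0.22 and 1.21 ± 0.10 and F11R lower, at -1.34 ± 0.19.

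Cholesterol and lipid synthesis fell almost as one. Cells make cholesterol from acetyl-CoA through mevalonate and squalene, and the SREBP factors drive the genes of the path when sterols run low. Of 32 tested genes 0 were higher and 31 lower (96.9%, against 11.5% of all genes), with a median of -0.83. HMGCS1, at the entry to the path, had the lowest fold of the list. The mevalonate steps MVK, MVD, IDI1 and FDPS were lower, at -1.05 ± 0.16, -1.09 ± 0.14, -0.99 ± 0.11 and -1.15 ± 0.08. PMVK, which acts between MVK and MVD, was the exception at -0.02 ± 0.16. Squalene and sterol steps followed, with FDFT1 at -0.75 ± 0.08, SQLE at -0.91 ± 0.10, LSS at -0.98 ± 0.10, CYP51A1 at -0.77 ± 0.12 and DHCR7 at -0.93 ± 0.09.

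The regulators and the fatty acid branch moved with them. INSIG1, which holds SREBP in the endoplasmic reticulum and is itself an SREBP target, stood at 1686 ± 74 in EV, 556 ± 19.9 in WT and 945 ± 42.7 in C134W, a fold of -1.60 ± 0.11. SREBF2 and SREBF1, which encode the SREBP factors, were lower, at -0.67 ± 0.09 and -0.63 ± 0.11. SCD, the desaturase that makes oleate, stood at 10951 ± 422 in EV, 3880.1 ± 159.8 in WT and 8227 ± 318 in C134W, a fold of -1.50 ± 0.11. FASN, fatty acid synthase, was lower, at -1.004 ± 0.11, ACACA at -0.91 ± 0.09 and ELOVL6 at -1.29 ± 0.12. The motif TCACNCCAC, of the kind SREBP binds, was found on either strand in 1 of the 25 promoters of the list that the table holds, that of SREBF2, and in 0.827% of all 7738. That promoter is shown with the motif in capitals.

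SREBF2 (chr22:41832855-41833104, plus strand): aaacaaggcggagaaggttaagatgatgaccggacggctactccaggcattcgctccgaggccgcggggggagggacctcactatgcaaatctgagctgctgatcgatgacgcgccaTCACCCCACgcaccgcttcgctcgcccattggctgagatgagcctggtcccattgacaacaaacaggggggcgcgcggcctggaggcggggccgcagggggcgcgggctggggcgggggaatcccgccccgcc

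**Figure D3:**
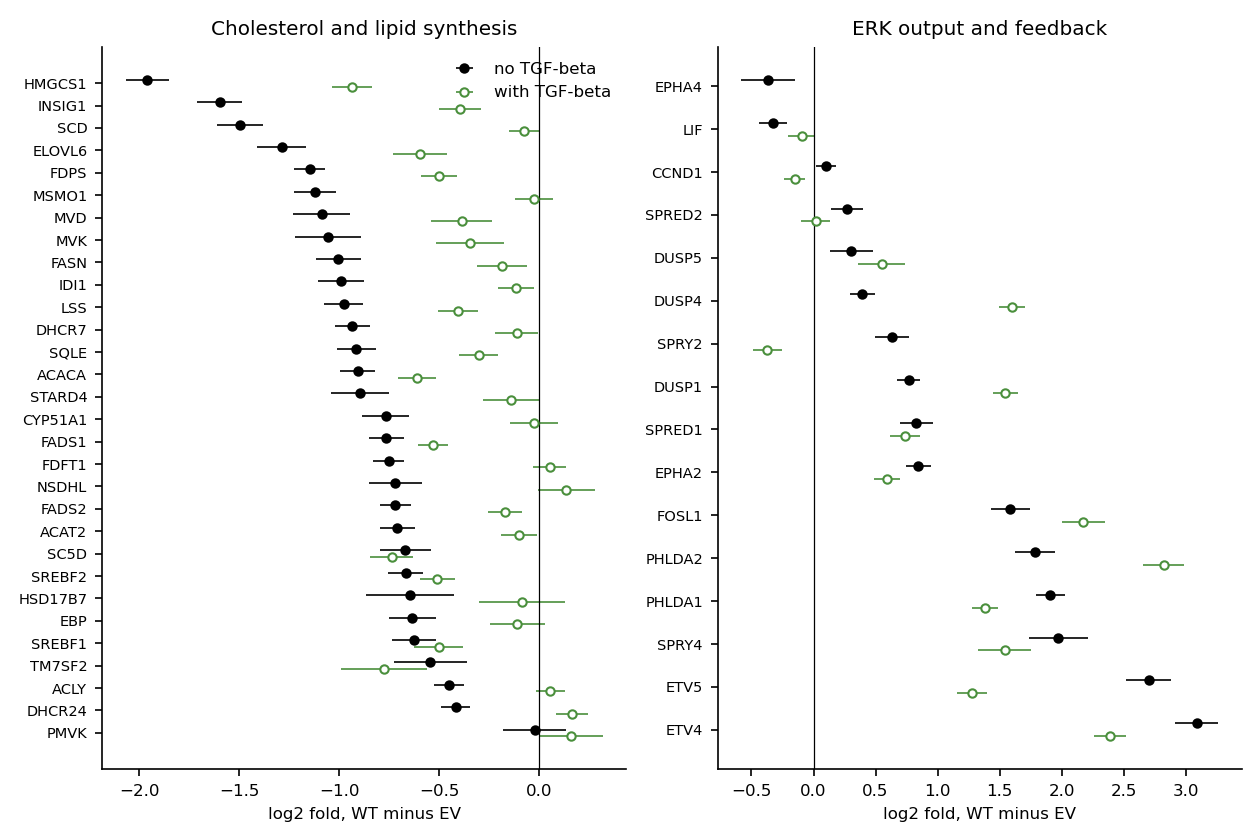
Log2 fold of WT minus EV for 30 of the 32 tested genes of cholesterol and lipid synthesis (left) and for the 16 of ERK output and feedback (right), without TGF-beta (black) and with it (green). Bars are the standard errors of the derived folds. HMGCS1 is lowest on the left at -1.96 without TGF-beta, and PMVK lies at -0.02. ETV4 is highest on the right at 3.09.

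Of 29 tested genes of glycolysis and the hypoxia response, 14 were higher (48.3%) and 2 lower (6.90%), with a median of 0.32, which was 0.19 with a mean of at least 500. STC2 stood at 1756 ± 64.2 in EV, 6184 ± 94.3 in WT and 4517 ± 157 in C134W, a fold of 1.82 ± 0.08, and NDRG1 and the glucose transporter SLC2A3 were higher by 1.75 ± 0.17 and 1.65 ± 0.20. Enzymes of glycolysis rose by less: HK1 by 0.61 ± 0.09, LDHA by 0.60 ± 0.07, GAPDH by 0.58 ± 0.08 and PKM by 0.46 ± 0.07. PDK1, which closes the entry to the mitochondrial cycle, was lower, at -0.61 ± 0.19, and VEGFA was 0.33 ± 0.18. Antioxidant genes were higher for 9 and lower for 0 of 20, among them MT2A (0.86 ± 0.10), NQO1 (0.85 ± 0.08), GPX3 (0.86 ± 0.22) and GPX1 (0.65 ± 0.14).

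The amino acid response had members in both directions. ATF4, the factor that drives it, was lower, at -0.59 ± 0.08. Of its 32 tested genes 10 were lower (31.25%, against 11.5% of all genes) and 6 higher (18.75%, against 13.9%), with a median of -0.07. NUPR1 (-1.12 ± 0.23), CTH (-1.07 ± 0.20), TRIB3 (-0.57 ± 0.12) and the serine enzyme PHGDH (-0.43 ± 0.08) were lower, while the cystine carrier SLC7A11 was higher by 1.29 ± 0.11. Chaperones of the endoplasmic reticulum were higher for 5 (22.7%) and lower for 1 (4.55%) of 22, SDF2L1 by 0.85 ± 0.22 and HSP90B1 at -0.43 ± 0.08. Over all genes the shares were 13.9% and 11.5%. In retinoid and vitamin D metabolism 4 of 9 were lower, the retinal reductase DHRS3 at -1.48 ± 0.21. Of 68 genes of ribosomal proteins 3 were higher and 3 lower, with a median of -0.04. With the C134W libraries taken out of the error, 5 were higher and 13 lower, against 2139 and 1856 of all 9356 genes. With TGF-beta 4 were higher and 19 lower.

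Cell cycle genes were lower more often than the 11.5% of all genes, by small amounts in the median. In the S phase list 2 of 40 were higher and 8 lower (20%, median -0.16), the ligase LIG1 at -0.59 ± 0.11 and the primase PRIM1 at -0.54 ± 0.14. In the G2/M list 4 of 35 were higher, CDC20 by 0.47 ± 0.09, and 13 lower (37.1%), with a median of -0.09. MKI67, the proliferation antigen, stood at 4201 ± 149 in EV, 1279 ± 113 in WT and 3339.8 ± 119 in C134W, a fold of -1.72 ± 0.19, and the kinetochore proteins CENPE and CENPF were lower, at -0.998 ± 0.13 and -0.84 ± 0.13. CDK1 (-0.00 ± 0.08), CCNB1 (-0.09 ± 0.07) and AURKB (0.02 ± 0.11) were not called. MKI67, CENPE and CENPF have very long mRNAs, and a set of such genes, drawn up as a sign of RNA quality after values had been seen, moved too. Of its 84 tested genes 31 were lower (36.9%, against 11.5% of all genes) and 4 higher (4.76%, against 13.9%), with a median of -0.22. In this set C134W minus WT had a median of 0.24 and C134W minus EV one of -0.01. The part of RNA quality in the folds of MKI67, CENPE, CENPF, MYH10 and COL12A1 (-0.48 ± 0.08) was not tested. Nor was it tested for any other gene with a long mRNA, in whichever list it was counted.

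Inhibitors of cyclin-dependent kinases, D cyclins and regulators of apoptosis moved in both directions. CCND3, cyclin D3, was higher by 1.48 ± 0.13. The inhibitors CDKN2A and CDKN1A (p21) were higher by 0.90 ± 0.12 and 0.58 ± 0.11, while RBL2 was lower, at -0.60 ± 0.13. Of 22 tested p53 targets 4 were higher and 4 lower (18.2% each, against 13.9% and 11.5% of all genes), MDM2 being -0.18 ± 0.11. Of 20 apoptosis regulators 5 were higher, PMAIP1 by 1.30 ± 0.12 and MCL1 by 0.48 ± 0.08, and 2 lower, BIRC3 at -0.80 ± 0.15 and BMF.

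Some genes fell outside the limit on the mean because a group was low, and are given as levels with no test. KRT81 stood at 31.5 in EV, 488 in WT and 116 in C134W. ACTG2, enteric smooth muscle actin, stood at 6.27, 193 and 97.7, and the endotoxin receptor TLR4 at 8.31, 118 and 84.3 in the same order. In the other direction FILIP1 stood at 270.0, 16.6 and 20.9, and NPR3, the natriuretic peptide clearance receptor, at 467, 48.1 and 15.4. There were 160 genes with a mean of at least 100 in the table against EV alone and 111 in that against WT alone.

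Markers of other cell types were looked at in the same libraries. None of 18 endothelial and immune markers reached the limit, and 2, EMCN and CD3E, were listed at 0 in both tables. The highest means were 45.8 for CD68, in the table against WT, and 41.1 for CD14, in that against EV. Of surface epithelium markers 7 could be tested, KRT7, KRT8 (0.35 ± 0.10) and KRT18 (0.36 ± 0.07) being higher, and LRRN4 (-0.84 ± 0.11) and KRT19 lower. MSLN (-0.07 ± 0.26) and CALB2 (-0.18 ± 0.15) were not called. Of theca and stroma markers 4 of 15 could be tested, NR2F2 higher by 0.37 ± 0.07 and LUM lower. In bulk RNA, fewer cells of a type and less RNA per cell cannot be told apart.

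The same difference was then derived in cells given TGF-beta, from libraries that share none with those above. Its dose and duration are not stated in the labels. WT against EV with TGF-beta was tested over 9490 genes, of which 2512 (26.5%) were higher and 1756 (18.5%) lower. Of 9194 genes tested in both, 2327 were called without TGF-beta and 4124 with it. The 1824 called in both make up 78.4% of the first and 44.2% of the second, and 1770 of them shared a direction. Across genes the correlation of both folds was 0.778 (Pearson's r, a description across genes that are not independent replicates, with shared library preparation). The difference of the folds itself was called for 795 genes (8.65%), 498 with a more positive fold under TGF-beta (5.42%) and 297 with a more negative one (3.23%). Of the 2327 genes called without TGF-beta, 412 were called for the difference. Of the 258 among them with a fold of at least 1 in size, 94 were. A gene not called for the difference is not thereby shown to have equal folds, since the error also counts the C134W libraries.

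The cholesterol group had the largest share of members whose fold differed between conditions among the lists with at least 5 tested members. With TGF-beta, 1 of 32 tested genes was higher and 13 lower, with a median of -0.16, and the difference was called for 24 of 32, always with a higher fold under TGF-beta. SCD had a fold of -0.08 ± 0.08 with TGF-beta (difference 1.42 ± 0.14, adjusted p = 2.3e-22). HMGCS1 was lower in both, at -0.94 ± 0.10 with TGF-beta. YAP and TEAD targets gained, with the difference called for 12 of 24, all upward, among them CYR61 at 1.14 ± 0.08 (difference 1.22 ± 0.10) and GADD45A at 1.89 ± 0.13 (1.41 ± 0.17). Genes induced by TGF-beta lost ground: for 11 of 24 the fold was lower and for 3 higher. TGFBI had a fold of 0.21 ± 0.07 with TGF-beta (difference -2.06 ± 0.11), its level being 29321 in EV and 33994 in WT. COL1A1 turned from higher to lower, at -0.84 ± 0.09 (-1.26 ± 0.14).

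Some single genes differed by more than 2 on the log2 scale between both conditions. F2RL1 had a fold of 7.33 ± 0.23 with TGF-beta, 15.8 normalized reads in EV and 2530.3 in WT (difference 2.59 ± 0.31, adjusted p = 3.1e-14). SERPINB2 had one of 4.23 ± 0.51 (2.48 ± 0.56) and S1PR1, a sphingolipid receptor, passed from lower (-0.91 ± 0.12) to higher (1.42 ± 0.15). ARHGAP22 and CYP24A1, the enzyme that degrades vitamin D, were not called without TGF-beta (-0.03 ± 0.18 and -0.11 ± 0.10) and had folds of 2.60 ± 0.18 and 2.27 ± 0.10 with it. In the other direction RGS4 dropped to 1.42 ± 0.11, KRT7 to -0.36 ± 0.13 and PDGFB to 0.23 ± 0.13, where EV cells with TGF-beta stood at 479, 1219 and 596 normalized reads. GPR56, an adhesion receptor, was 0.22 ± 0.26 without TGF-beta and -2.12 ± 0.14 with it. H19 was lower in both, at -4.21 ± 0.21 with TGF-beta. FOXL2 (7.03 ± 0.32), HTRA1 (7.94 ± 0.20) and FST (2.81 ± 0.19) had folds that the test did not separate from those without TGF-beta (adjusted p = 0.48, 0.18 and 0.77).

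**Figure D4:**
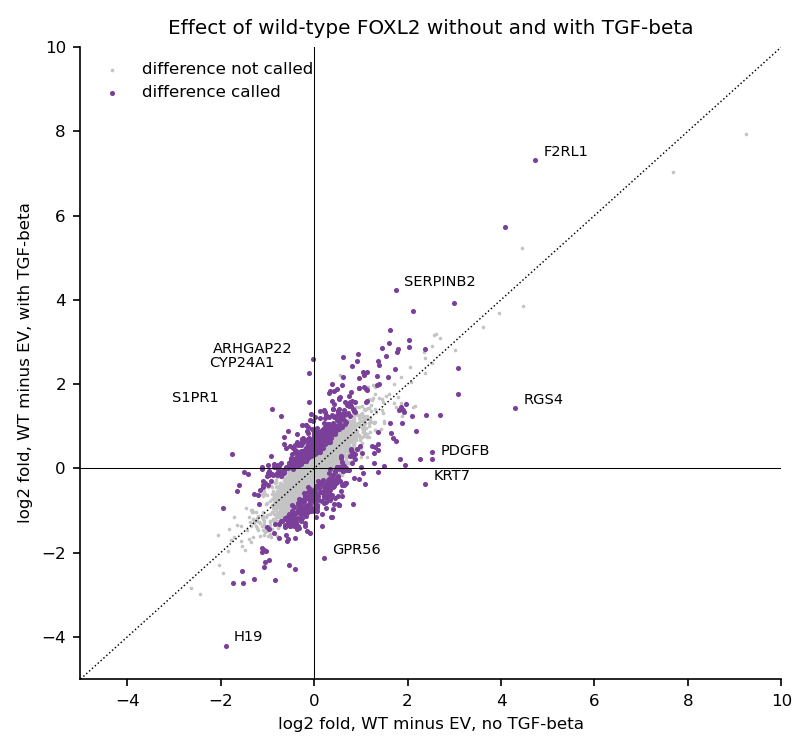
Log2 fold of WT minus EV with TGF-beta (vertical axis) against that without (horizontal axis) for the 9194 genes tested in both, each point a gene. Purple points are the 795 genes called for the difference, and the dotted line marks equal folds. F2RL1 lies above the line at 4.74 without and 7.33 with TGF-beta, RGS4 below it at 4.30 and 1.42, and H19 below it at -1.89 and -4.21.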

How the data were processed

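RNA of HGrC1 cells was analysed from 4 tables of 26330 gene symbols, each with 3 libraries a group. The authors worked on hg38 with DESeq2, HTSeq 0.6.1, Bowtie2 and Trimmomatic 0.36.0, per the submitters' processing notes, in which no tool has a stated role. The authors deposited for each gene a mean normalized count over the libraries of both groups (a signal), a log2 fold change with its error, a Wald score and a p-value with its adjusted p-value. The deposited log2 folds were shrunk towards 0 by a normal prior, and no table holds values per library.

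The prior width was taken as 2 times the largest standard error of a table, since the error of a shrunken fold peaks at that fraction of the width. Fold, dispersion and group levels were then solved per gene, and size factors came from genes with 1 read in all. The solving step was tried on simulated data made and solved with the same prior width, size factors and form of the error. The choice of the prior width and the estimate of the size factors were therefore not tested there. WT minus EV is the difference of both unshrunken folds, with the root of the summed squared errors, a two-sided z test and Benjamini-Hochberg adjustment over 9356 genes (Python 3.11.15, numpy 2.4.6, pandas 2.3.3, scipy 1.17.1, matplotlib 3.10.9). Of the genes, 9306 matched RefSeq (GRCh38.p14), which gave promoters and names.

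Named were FOXL2, the 15 highest and 15 lowest folds, up to 4 called members of each of 43 lists with others where the background needed them, and 5 genes a direction whose effect differed most with TGF-beta. The members of the comparison and the lists were chosen with earlier results of these data known. Genes and examples beyond that rule were chosen after their values were seen. Alternatives changed the undoing, the scaling, the error, the limit on the mean, the threshold and the derivation. Chromatin samples and KGN cells were not analysed here, and some genes counted in the lists are not reported here by name.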

Additional observations from a re-analysis of the deposited data

Results flagged for a closer look

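For 10 genes the effect of wild-type FOXL2 with TGF-beta differed most from that without it, by a z test of the difference with Benjamini-Hochberg adjustment over 9194 genes, 5 in each direction. The difference, with minus without on the log2 scale, was 2.63 ± 0.26 for ARHGAP22 (adjusted p = 3.9e-22), 2.59 ± 0.31 for F2RL1 (3.1e-14) and 2.48 ± 0.56 for SERPINB2 (2.9e-04). It was 2.38 ± 0.14 for CYP24A1 (3.8e-61) and 2.33 ± 0.19 for S1PR1 (3.2e-30). In the other direction it was -2.88 ± 0.26 for RGS4 (2.0e-26), -2.73 ± 0.22 for KRT7 (7.2e-32), -2.34 ± 0.29 for GPR56 (2.2e-13), -2.31 ± 0.27 for H19 (2.2e-15) and -2.30 ± 0.28 for PDGFB (1.0e-13). The EV level of SERPINB2 with TGF-beta was only 3.02 normalized reads. How many libraries show each direction could not be counted.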

How the results depend on the processing

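FOXL2 stayed higher, and no named gene tested there reversed, under the settings in which single genes were followed (77 genes with a mean of at least 500). An adjusted p under 0.01, the largest error as the prior width and leaving out genes of large error were run for the counts alone. Against 1305 higher and 1079 lower genes, 2139 and 1856 were called with the C134W libraries taken out of the error, 2164 and 1870 with the summed variance halved, and 839 and 609 with a mean of at least 500, where fewer genes were tested. Against 173 and 120 genes past 1 on the log2 scale, there were 378 and 323 with no limit on the mean, 322 and 249 with a mean of at least 20, and 63 and 33 with a mean of at least 500. With the largest error taken as the prior width, a setting chosen after seeing the data, 254 were lower by at least 1. The difference between conditions was called for 1270 and 761 genes, against 498 and 297, with C134W out of the error. With a mean of at least 500 the medians of the Notch list (-0.13) and of the keratin list (-0.0216) changed sign. So did the small medians of TGF-beta family ligands (-0.26) and of integrins and laminins (0.10). In the same setting 9 other list medians moved. Among them were ERK output (0.58), plasminogen activation (0.57), granulosa identity (0.40), BMP response (0.18) and hypoxia and glycolysis (0.19).

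Calls of 5 genes were lost under at least 1 setting: SIRT1, RARRES2, SRD5A3, NOTCH3 and BST2. Also chosen after seeing the data were leaving out genes with an error near the largest of a table and taking the second solution of the undoing, under which IGFBP7-AS1 was 3.82 ± 1.35 (adjusted p = 0.022). No paired analysis was possible because the deposited tables hold no values per library, and leaving out each replicate in turn was not run for the same reason. EV levels under 10 normalized reads (HTRA1, FOXL2, HUNK, SERPINE2) limit those folds.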
